A study of Mus musculus with 10 samples.

Results

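The genes described here mark inhibitory interneurons, the GABA-releasing nerve cells of the cortex. They were chosen by name, with earlier results of these data known: Gad1, Gad2, Slc32a1, Dlx1, Dlx2, Dlx5, Lhx6 and Calb2. Of these 8 genes, 7 had a probe set annotated to that gene alone, out of 22180 genes measured in this way. The single probe set for Dlx1 is also annotated to its antisense transcript Dlx1as, so Dlx1 has no value of its own here. For Slc32a1, which had 2 probe sets, the brighter one was used.

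RNA came from cortical neurons dissociated from mouse embryos at embryonic day 14.5 to 15.5 and grown in Neurobasal/B27 medium until day 7 in vitro, when they received 5 µM sodium arsenite or vehicle for 12 hours. Arsenite binds thiol groups of proteins and puts cells under oxidative stress. ATF4 is a transcription factor whose translation rises when stress signalling slows protein synthesis. The 10 Affymetrix arrays comprised 2 of ATF4-deficient neurons with arsenite, 2 of ATF4-deficient neurons with vehicle, 4 of wildtype neurons with arsenite and 2 of wildtype neurons with vehicle. The labels give neither the ATF4 allele nor the strain. They call the samples biological replicates without naming the animals or cultures, so each p-value reflects only how far these arrays differ, which may be technical.

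Values are log2 expression values, on which a difference of 1 is a doubling. Array medians lay between 7.00 and 7.09, and arrays correlated at 0.982 to 0.994 across genes, which are not independent replicates. Atf4 itself, the check of the genotype labels, was lower in ATF4-deficient than in wildtype neurons, with a log2 difference of -1.76 under vehicle (adjusted p = 0.00876) and -2.08 under arsenite (adjusted p = 0.000718, limma, adjusted over all genes). The vehicle call was lost without replicate 2 of either vehicle group (adjusted p up to 0.199), and the arsenite call held without each array in turn. All 7 measured interneuron genes averaged above 6.64, the level below which 90% of 1390 olfactory and vomeronasal receptor genes lie, which serves here as a reference for dim signal.

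GABA is made from glutamate by glutamic acid decarboxylase, of which Gad1 and Gad2 encode the isoforms, and is loaded into synaptic vesicles by the transporter that Slc32a1 encodes. Cortical interneurons arise in the ganglionic eminences of the ventral forebrain and migrate into the cortex. Dlx1, Dlx2 and Dlx5 encode homeodomain transcription factors that act in these progenitors and their migrating offspring, Lhx6 encodes a LIM-homeodomain factor of interneurons from the medial eminence, and Calb2 encodes calretinin, a calcium-binding protein of an interneuron subset and of Cajal-Retzius cells.

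Dlx2 was the one gene of the 7 that passed the test: averaged over both treatments it was lower in ATF4-deficient neurons, with a log2 difference of -0.38, a fold of 0.769. In that comparison 1.82% of all genes passed, and the Dlx2 call was lost on leaving out any of 6 of the 10 arrays. Slc32a1, Dlx5, Lhx6 and Calb2 had mean differences of -0.28 to -0.70 that did not pass, while Gad2 stood at 0.08. With arsenite, 0 of the 7 genes passed in ATF4-deficient neurons, where 1.15% of all genes did, and 0 in wildtype neurons, where 0.482% did, by limma. The largest difference was that of Gad1 in ATF4-deficient neurons at -0.72, or -0.29 without ATF4-deficient arsenite replicate 2.

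The promoter of Dlx2 is shown because this gene carries the one call. Its RefSeq promoter window, 250 bases before to 50 bases after the annotated start on build GRCm38.p6, lies on the minus strand at chr2:71546705-71547004, in the Dlx1 and Dlx2 pair of neighbouring genes. Capitals mark the only match, TGACGT, to the 4 strings searched in the promoter windows.
Dlx2: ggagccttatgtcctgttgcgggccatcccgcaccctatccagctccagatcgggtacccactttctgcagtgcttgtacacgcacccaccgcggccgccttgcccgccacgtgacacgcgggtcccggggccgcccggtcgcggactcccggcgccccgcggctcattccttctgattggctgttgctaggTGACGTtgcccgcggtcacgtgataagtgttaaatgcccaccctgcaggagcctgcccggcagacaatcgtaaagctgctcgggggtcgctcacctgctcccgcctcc
The windows of Gad1, on the plus strand at chr2:70561879-70562178, and of Gad2, on the plus strand at chr2:22622077-22622376, are shown beside each other because these genes encode isoforms of the same enzyme. They hold none of the strings.
Gad1: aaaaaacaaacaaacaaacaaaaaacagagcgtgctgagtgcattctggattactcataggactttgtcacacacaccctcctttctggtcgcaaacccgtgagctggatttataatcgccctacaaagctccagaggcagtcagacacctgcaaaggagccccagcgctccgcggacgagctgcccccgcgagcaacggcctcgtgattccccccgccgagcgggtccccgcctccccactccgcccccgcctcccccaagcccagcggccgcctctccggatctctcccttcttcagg
Gad2: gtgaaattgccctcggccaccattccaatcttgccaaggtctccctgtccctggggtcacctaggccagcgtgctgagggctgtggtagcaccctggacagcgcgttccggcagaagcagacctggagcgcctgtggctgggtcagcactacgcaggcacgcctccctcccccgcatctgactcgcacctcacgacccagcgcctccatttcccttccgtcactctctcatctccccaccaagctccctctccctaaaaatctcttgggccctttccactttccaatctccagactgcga
RefSeq windows were found for 6 of the 8 genes, 8 windows in all, and the others are Dlx5 and Calb2. The strings, read on both strands, were TAATTA, the core bound by many homeodomain proteins, TGATGNAA, the composite element of ATF4 with C/EBP factors, TGACGTCA, the full cyclic-AMP response element, and TGACGT, which lies within the full element. They occur in 5.29%, 3.97%, 1.79% and 7.51% of 32851 RefSeq promoter windows, in the order named. A match to so short a string is a description of the sequence and not a binding site. GC content was 66.3% in the Dlx2 window, 60.0% in that of Gad1 and 61.3% in that of Gad2, against a median of 52.7% over all windows.

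Gad1, on chromosome 2, is the decarboxylase gene active throughout the cell. It read 7.46 and 6.60 in ATF4-deficient neurons with arsenite, 7.87 and 7.63 in ATF4-deficient neurons with vehicle, 7.76, 7.52, 7.38 and 7.36 in wildtype neurons with arsenite, and 7.85 and 7.56 in wildtype neurons with vehicle. One array, ATF4-deficient arsenite replicate 2, lay far below the other 9. Both ATF4-deficient arsenite arrays lay below all 4 vehicle arrays, and the other pairs of groups overlapped. Group means were 7.03 ± 0.61 (SD, n = 2), 7.75 ± 0.17 (n = 2), 7.50 ± 0.18 (n = 4) and 7.70 ± 0.21 (n = 2) in the same order.

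Gad2, also on chromosome 2, encodes the isoform tied to nerve terminals. Its values were 10.05 and 10.03 in ATF4-deficient neurons with arsenite, 10.05 and 10.05 in ATF4-deficient neurons with vehicle, 10.05, 10.30, 10.02 and 9.74 in wildtype neurons with arsenite, and 10.10 and 9.69 in wildtype neurons with vehicle. The ATF4-deficient arrays lay inside the range of the wildtype arrays. An identical value on at least 3 arrays, as here, occurred in 16% of genes, since the median polish of RMA can give arrays the same value, and the spread of 0.00 in the ATF4-deficient vehicle group is not a measure of replicate error.

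Slc32a1, the vesicular GABA transporter gene on chromosome 2, read 8.21 and 8.04 in ATF4-deficient neurons with arsenite, 8.35 and 8.10 in ATF4-deficient neurons with vehicle, 8.39, 8.52, 8.35 and 8.40 in wildtype neurons with arsenite, and 8.49 and 8.60 in wildtype neurons with vehicle. The highest ATF4-deficient array and the lowest wildtype array had the same value, and the other ATF4-deficient arrays lay below all wildtype arrays. Its group means were 8.13 ± 0.12, 8.22 ± 0.18, 8.42 ± 0.07 and 8.54 ± 0.08 in that order of groups.

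Dlx2 values were tight within groups, at 8.61 and 8.53 in ATF4-deficient neurons with arsenite, 8.62 and 8.65 in ATF4-deficient neurons with vehicle, 8.96, 9.15, 8.91 and 8.90 in wildtype neurons with arsenite, and 8.92 and 9.04 in wildtype neurons with vehicle. The highest of the ATF4-deficient arrays, at 8.65, was still below the lowest wildtype array, at 8.90. Of all 22180 genes, 1.49% showed every ATF4-deficient array below every wildtype array, and Dlx2 was the only one of the 7 interneuron genes that did. The group means were 8.57 ± 0.05, 8.63 ± 0.02, 8.98 ± 0.12 and 8.98 ± 0.09.

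Dlx5, on chromosome 6 next to Dlx6, differed more between replicates of ATF4-deficient neurons. It read 9.11 and 8.47 in ATF4-deficient neurons with arsenite, 9.43 and 8.67 in ATF4-deficient neurons with vehicle, 9.55, 9.30, 9.13 and 9.31 in wildtype neurons with arsenite, and 9.45 and 9.41 in wildtype neurons with vehicle. Replicate 2 was the low array in both ATF4-deficient groups, and replicate 1 of the vehicle group lay within the wildtype range.

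Lhx6, on chromosome 2, read 8.47 and 8.20 in ATF4-deficient neurons with arsenite, 8.59 and 8.44 in ATF4-deficient neurons with vehicle, 8.71, 8.61, 8.60 and 8.48 in wildtype neurons with arsenite, and 8.92 and 8.69 in wildtype neurons with vehicle. Within each treatment the ATF4-deficient arrays lay below the wildtype arrays, and across treatments 1 wildtype arsenite array lay below the highest ATF4-deficient array.

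Calb2, on chromosome 8, had the widest range over the arrays of the 7 genes. It read 7.95 and 7.24 in ATF4-deficient neurons with arsenite, 7.83 and 7.49 in ATF4-deficient neurons with vehicle, 8.38, 7.94, 7.86 and 8.61 in wildtype neurons with arsenite, and 8.06 and 8.87 in wildtype neurons with vehicle. The genotypes separated under vehicle and overlapped under arsenite, where 2 wildtype arrays lay below the higher ATF4-deficient array. ATF4-deficient arsenite replicate 2 was the lowest of the 10 arrays for 6 of the 7 genes, all but Gad2, and for 17.5% of all genes.

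**Figure D1:**
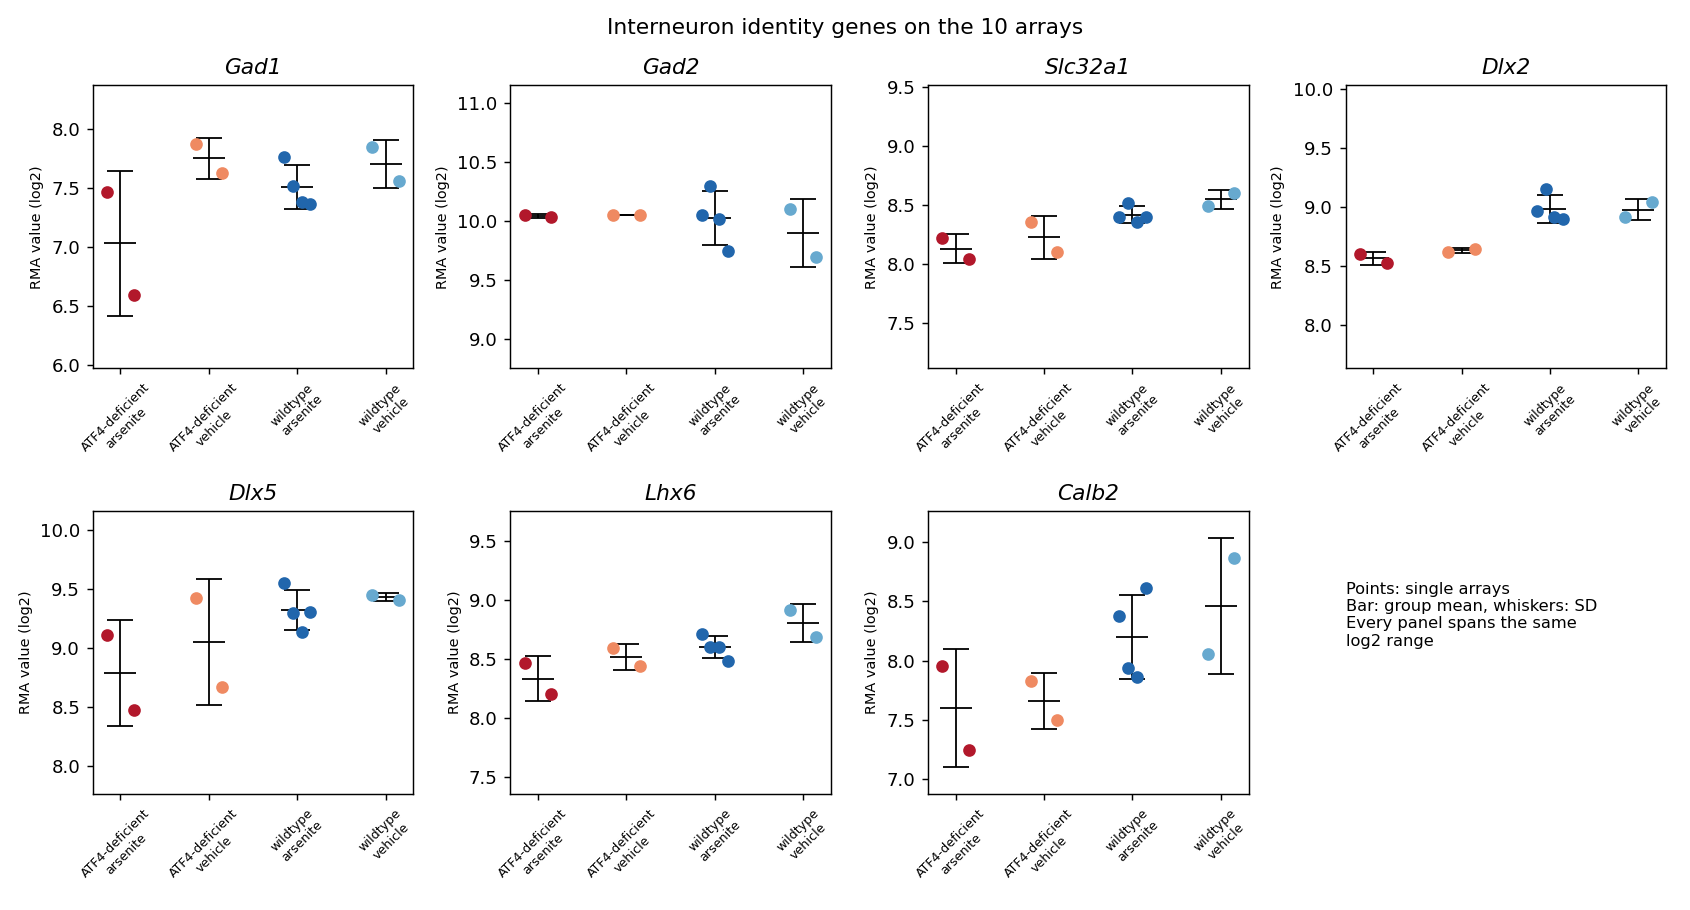
Log2 expression of the 7 measured interneuron genes in each of the 10 arrays, 1 panel per gene with vertical axes of equal span, 1 point per array, a bar for the mean of each group and whiskers for the SD. The Dlx2 points of ATF4-deficient neurons, at 8.53 to 8.65, all lie below those of wildtype neurons, at 8.90 to 9.15, while the Gad2 points overlap.

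The genotype comparison asks which of these genes differ when ATF4 is lacking. Averaged over both treatments, Dlx2 had a difference of -0.38 (SE 0.07, 95% interval -0.54 to -0.22, limma adjusted p = 0.0245). It was 1 call among the 7 genes, and 1.82% of all genes passed this test. The call was lost when any 1 of 6 arrays was left out, namely each array of both ATF4-deficient groups and each wildtype vehicle array. The adjusted p then lay between 0.0537 and 0.130, with the difference between -0.35 and -0.41.

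Among the genes that did not pass, Slc32a1 had a mean difference of -0.30 (95% interval -0.47 to -0.14, adjusted p = 0.0763). Calb2 had the largest of the 7 differences, -0.70, with an interval of -1.16 to -0.24 (limma adjusted p = 0.125). Lhx6 stood at -0.28 (adjusted p = 0.135) and Dlx5 at -0.46 (adjusted p = 0.191) in the same limma fit, where Dlx5 was -0.27 without ATF4-deficient vehicle replicate 2. For both decarboxylase genes the interval included 0, at -0.56 to 0.13 for Gad1 and -0.16 to 0.33 for Gad2. Differences were negative for 6 of the 7 genes, with a median of -0.30 against a median of 0.01 over all genes. At an unadjusted p under 0.05, 5 of the 7 genes passed, beside 16.3% of all genes. Because the list was chosen with earlier results of these data known, such counts and medians describe it and are not a test.

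Within treatments the test has fewer arrays to draw on, and 0 of the 7 genes passed under vehicle or under arsenite in limma, where 0.433% and 0.343% of all genes passed. Under vehicle, Dlx2 differed by -0.34 (adjusted p = 0.243), Slc32a1 by -0.32 (adjusted p = 0.320) and Calb2 by -0.80 (adjusted p = 0.372). Single arrays moved some of these values: Slc32a1 was -0.19 without ATF4-deficient vehicle replicate 2, and Calb2 was -1.21 and -0.40 without wildtype vehicle replicate 1 and 2. Under arsenite the Dlx2 difference was -0.41 (adjusted p = 0.118) and that of Slc32a1 was -0.29 (adjusted p = 0.291), both by limma. At an unadjusted p under 0.05, 4 of the 7 genes passed under vehicle, beside 10.9% of all genes, and 5 passed under arsenite, beside 12.1%. Gad1 had a difference of 0.05 under vehicle and -0.48 under arsenite, and the value under arsenite was -0.91 without ATF4-deficient arsenite replicate 1 and -0.043 without replicate 2. The median difference of the 7 genes was -0.32 under vehicle and -0.41 under arsenite, against 0.00 and 0.02 over all genes.

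**Figure D2:**
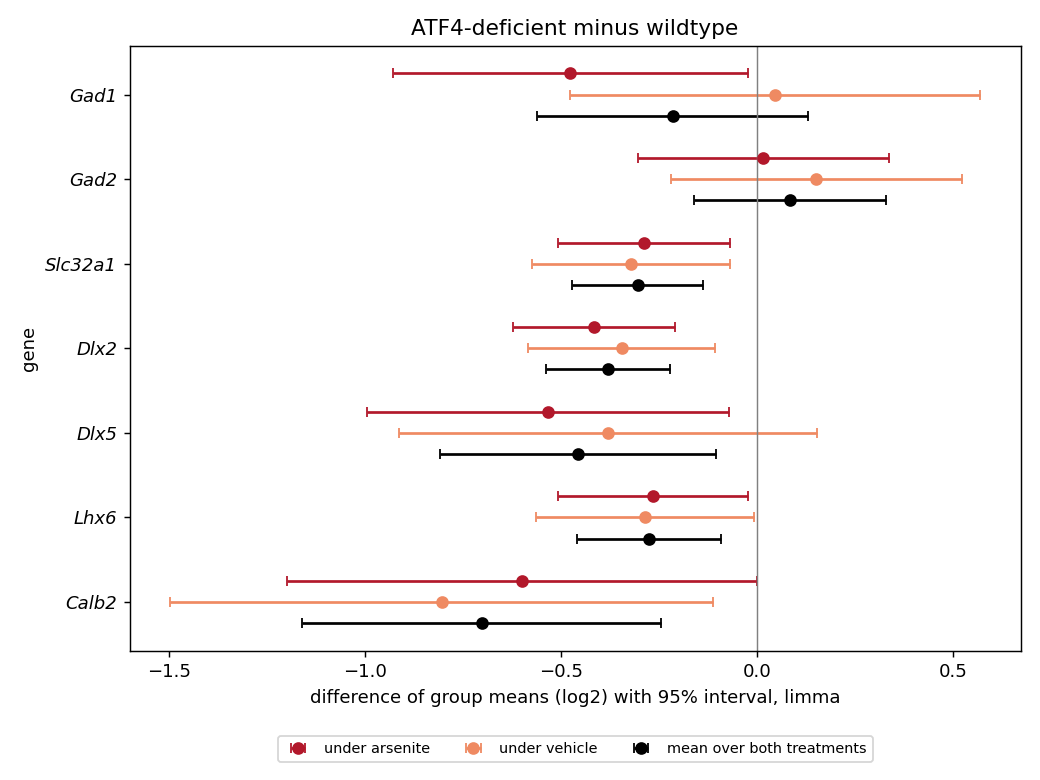
Difference in log2 expression, ATF4-deficient minus wildtype, for each of the 7 interneuron genes under arsenite, under vehicle and averaged over both treatments, as points with 95% intervals from limma. The averaged interval of Dlx2 runs from -0.54 to -0.22, and those of Gad1 and Gad2 cross 0.

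Total RNA of a culture that can hold several cell types was measured, so fewer cells of a type and less RNA per cell cannot be told apart. Lists of markers of other cell types, taken from general knowledge but with earlier results of these data known, were read in the same arrays. The mean level of 12 astrocyte markers, 11 of them above the dim reference, was 7.76 to 8.14 in ATF4-deficient neurons with arsenite, 7.80 to 8.22 in ATF4-deficient neurons with vehicle, 8.23 to 8.81 in wildtype neurons with arsenite and 8.85 to 9.07 in wildtype neurons with vehicle. It was thus lower in every ATF4-deficient array than in every wildtype array, but the margin was narrow. The highest ATF4-deficient array stood at 8.2214 and the lowest wildtype array at 8.2315. Averaged over treatments, 7 of the 12 markers (Aldoc, Aqp4, Fabp7, Gfap, Ndrg2, Slc1a3 and Sox9) fell in ATF4-deficient neurons, where 1.82% of all genes passed. In the same comparison 3 of 9 oligodendrocyte lineage markers (Olig1, Olig2 and Pdgfra) and 2 of 10 progenitor and cycling markers (Hes5 and Sox2) fell. There 0 of 10 microglia markers passed in limma, 2 of them having an unadjusted p under 0.05 beside 16.3% of all genes. Above the dim reference were 8 of the 9 oligodendrocyte lineage, 8 of the 10 progenitor and 7 of the 10 microglia markers. Of 6 markers of striatal projection neurons, which are GABAergic too, Drd2 and Rarb fell, at -0.71 and -0.44, and the list's median was 0.05. Slc17a6 of the excitatory neuron markers and Nefl of the general neuron markers rose, at 0.40 and 0.49, and Tubb3, a neuronal tubulin gene, fell, at -0.44. Sox9 and Drd2 kept these calls without each array in turn, and the other genes named lost theirs without wildtype vehicle replicate 2 and also without at least 1 further array. Rgs5, the called gene of the vascular list, averaged below the dim reference and is given no size. In that list Col1a1 and Dcn read 8.14 and 8.33 in wildtype arsenite replicate 2, and 7.93 and 8.01 in replicate 3. On the other arrays they were at most 7.25 and 7.80. Col1a2 and Lum, which averaged below the dim reference, were likewise highest on those replicates. The wildtype arsenite arrays were thus not alike in these genes, and the cause was not tested. The mean of 16 excitatory neuron markers was 8.41 to 8.42, 8.49 to 8.50, 8.24 to 8.38 and 8.54 to 8.57 in the same order of groups, and that of 11 general neuron markers stayed between 10.39 and 10.57 over all arrays. These lists had median genotype differences of -0.77 for astrocyte, 0.05 for excitatory neuron and 0.01 for general neuron markers, beside -0.30 for the interneuron genes. The part of these shifts in the Dlx2 difference was not tested.

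**Figure D3:**
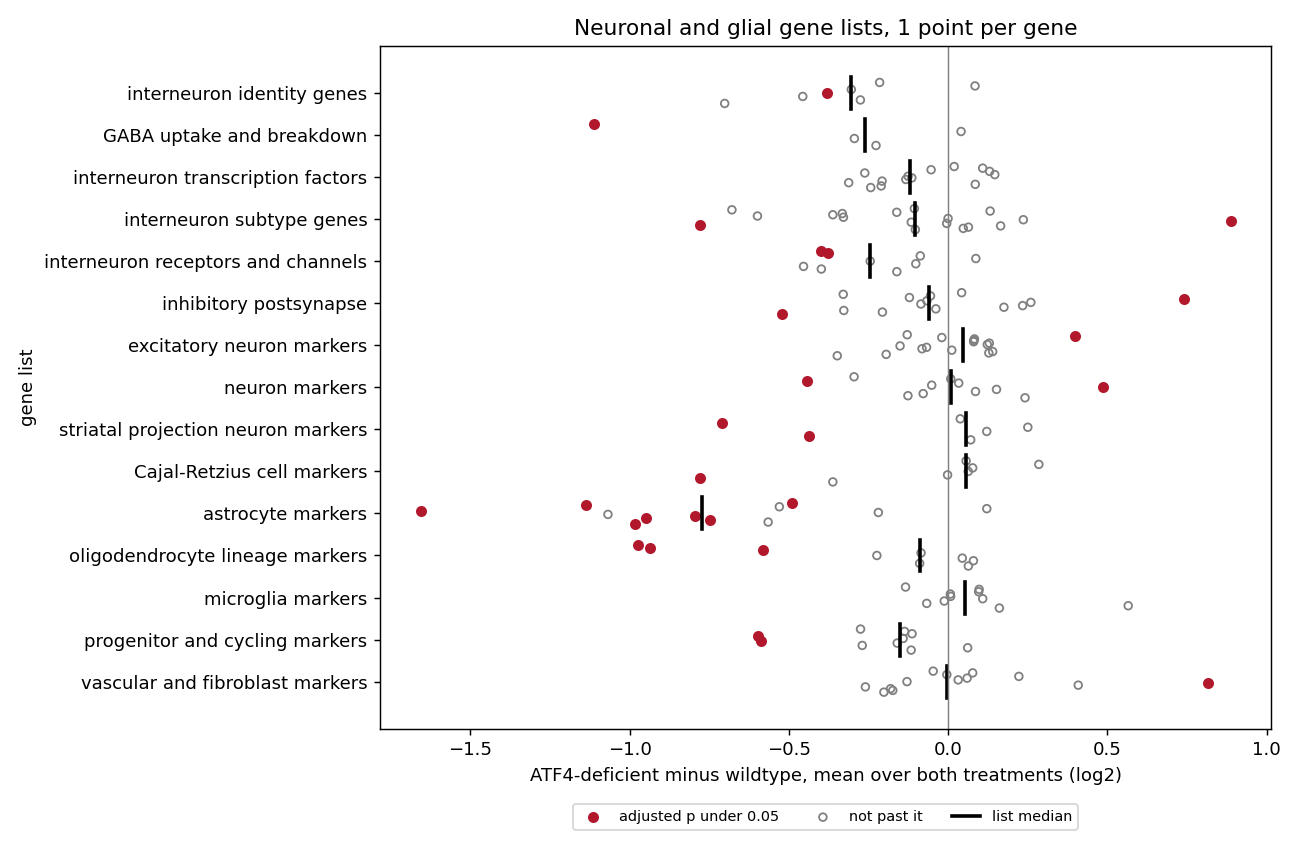
Difference in log2 expression, ATF4-deficient minus wildtype averaged over both treatments, with 1 point per gene and a bar for the median of each marker list, and filled points for genes past an adjusted p of 0.05. The interneuron identity genes have a median of -0.30, astrocyte markers -0.77 and excitatory neuron markers 0.05.

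The arsenite comparison asks which genes moved after 12 hours of exposure. In ATF4-deficient neurons 0 of the 7 genes passed in limma, where 1.15% of all genes passed, and in wildtype neurons 0 of 7 passed, where 0.482% of all genes passed. At an unadjusted p under 0.05, 1 of the 7 genes passed in ATF4-deficient neurons, beside 12% of all genes, and 0 passed in wildtype neurons, beside 10.9%. Gad1 had the largest difference in ATF4-deficient neurons, -0.72 (SE 0.24, 95% interval -1.24 to -0.20, limma adjusted p = 0.231). That value turns on which ATF4-deficient arsenite array is used: it was -1.15 without replicate 1, with an adjusted p of 0.0421, and -0.29 without replicate 2. In wildtype neurons Gad1 differed by -0.20, with an interval of -0.65 to 0.25.

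The other 6 genes had differences between -0.26 and 0.00 in ATF4-deficient neurons. In wildtype neurons they lay between -0.27 for Calb2 and 0.13 for Gad2, and Dlx2 stood at 0.00 with an interval of -0.20 to 0.21. Averaged over both genotypes, 0 of the 7 genes passed in limma, where 3.07% of all genes passed. There the difference was -0.46 for Gad1 (adjusted p = 0.165) and -0.19 for Lhx6 (adjusted p = 0.289), the 2 genes with an unadjusted p under 0.05, beside 16.1% of all genes. The averaged Gad1 difference was -0.68 without ATF4-deficient arsenite replicate 1 (limma adjusted p = 0.0207) and -0.24 without replicate 2, and that of Lhx6 was -0.13 without replicate 2. The median over the 7 genes was -0.16, against -0.01 over all genes.

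**Figure D4:**
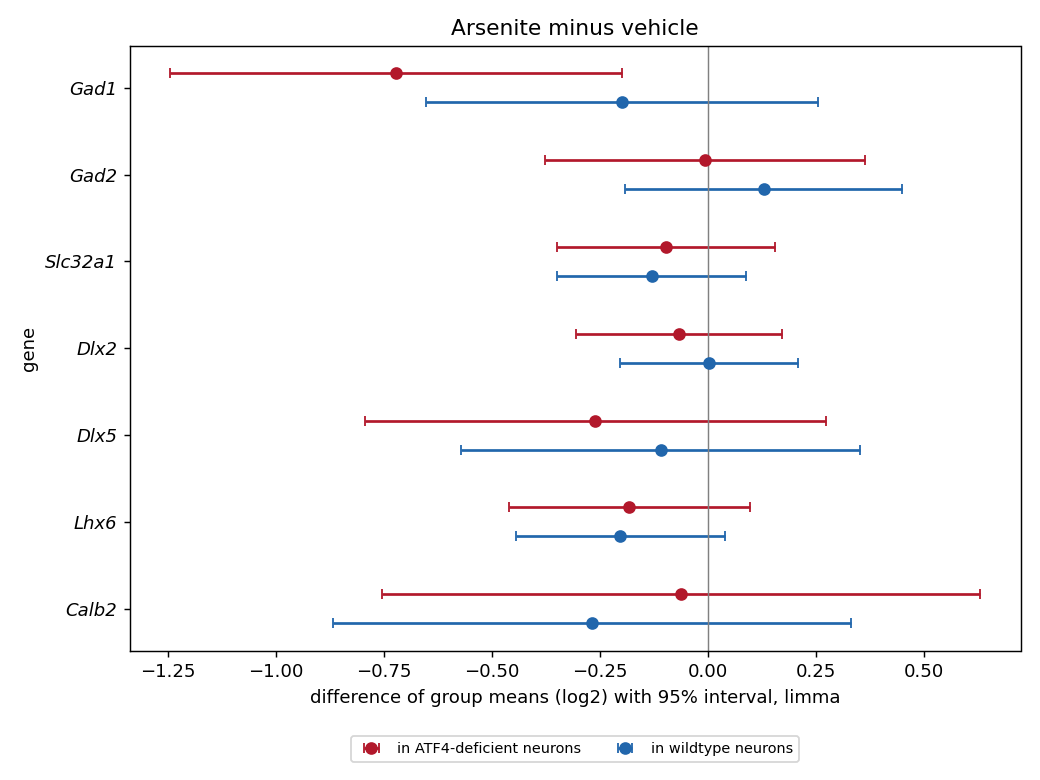
Difference in log2 expression, arsenite minus vehicle, for each of the 7 interneuron genes in ATF4-deficient and in wildtype neurons, as points with 95% intervals from limma. The interval of Gad1 in ATF4-deficient neurons runs from -1.24 to -0.20, and every interval in wildtype neurons includes 0.

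The interaction, the arsenite response of ATF4-deficient neurons minus that of wildtype neurons, asks whether the genotypes respond differently. In limma 0 of the 7 genes passed, and 0% of all genes did. At an unadjusted p under 0.05, 0 of the 7 genes passed beside 6% of all genes. The widest estimates were -0.52 for Gad1 (95% interval -1.21 to 0.17) and 0.21 for Calb2 (-0.71 to 1.12). The Gad1 value was -0.96 without ATF4-deficient arsenite replicate 1 and -0.090 without replicate 2, and that of Calb2 was 0.61 without wildtype vehicle replicate 1 and -0.20 without replicate 2. For Dlx2 the interval was narrower, -0.39 to 0.25.

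The interneuron genes tended to move together from array to array, which is given as a description because the arrays share groups and preparation. The share of positive pairs among genes in general was not computed, so the trait is not shown to be particular to these genes. Over the 10 arrays, 17 of the 21 pairs of genes had a positive Pearson correlation, with a median of 0.64. The highest was that of Slc32a1 with Dlx2, at 0.865, and the lowest that of Gad2 with Calb2, at -0.633. With the group means removed, 19 of the 21 pairs were positive, the median was 0.37, and the highest pair was Gad1 with Lhx6 at 0.907. Against the mean of the 7, which contains the gene itself, Gad2 correlated at -0.113 and Dlx5 at 0.957 over the 10 arrays, and at 0.148 and 0.944 with the group means removed.

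Outside the 7 genes, those whose values over the 10 arrays most resembled the mean of the 7, among 13511 genes above the dim reference, were Aplp1 at a Pearson correlation of 0.970, Dcakd at 0.970, Rab1b at 0.969, Prrt2 at 0.965, Hddc3 at 0.965, Selenow at 0.963, Gm12508 at 0.962 and Dmtn at 0.961. With the group means removed the nearest were Mapk1ip1l at 0.993, Snord35a and Snord110 at 0.990, Smyd5 at 0.989, Ccdc97 at 0.987, Ubap2l at 0.982, Rpsa at 0.980 and Tsn at 0.979. None of these 16 genes stands in the interneuron or cell type lists.

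A further 5 lists covered other genes of inhibitory neurons and their synapses. Averaged over both treatments, 0 of 14 further interneuron transcription factors passed for genotype in limma, with a median difference of -0.12. Of these 14, 10 averaged above the dim reference, and 5 had an unadjusted p under 0.05, beside 16.3% of all genes. Maf had the largest difference at -0.31 (adjusted p = 0.112), then Sox6 at -0.26 (adjusted p = 0.108), and Satb1 stood at 0.15 (limma adjusted p = 0.557). In this comparison 1.82% of all genes passed. Of 9 interneuron receptors and channels, 5 had an unadjusted p under 0.05 in limma, beside 16.3% of all genes. After adjustment 2 of the 9 fell in ATF4-deficient neurons and 0 rose, with a list median of -0.24. They were Erbb4, a neuregulin receptor that interneurons express, at -0.40 (limma adjusted p = 0.0180), and Cxcr4 at -0.38 (limma adjusted p = 0.0229). Cxcr4 is a chemokine receptor used in interneuron migration. RNA of whole cultures was measured, so neither fall can be assigned to a cell type. Erbb4 was 9.65 and 9.60 in ATF4-deficient neurons with arsenite, 9.61 and 9.76 in ATF4-deficient neurons with vehicle, 10.12, 10.14, 9.98 and 9.996 in wildtype neurons with arsenite, and 10.12 and 9.98 in wildtype neurons with vehicle. The arrays of the genotypes did not overlap for either gene, as for Dlx2. Of all genes, 1.49% had every ATF4-deficient array below every wildtype array. The Erbb4 call was lost without either wildtype vehicle array, either ATF4-deficient vehicle array or ATF4-deficient arsenite replicate 2, at adjusted p up to 0.0675. The Cxcr4 call was lost without either wildtype vehicle array or replicate 2 of either ATF4-deficient group, at adjusted p up to 0.121. Kcnc2, a potassium channel gene of fast-spiking cells, differed by -0.45 (adjusted p = 0.121) and Nxph1, a neurexin ligand gene, by -0.16 (limma adjusted p = 0.443).

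Among 18 genes of interneuron subtypes, 1 rose and 1 fell with genotype averaged over treatments, where 1.82% of all genes passed. Of the 18 genes, 13 averaged above the dim reference. At an unadjusted p under 0.05 in limma, 9 of the 18 passed, beside 16.3% of all genes. Cort, which encodes the somatostatin-related peptide cortistatin, was higher by 0.89 in ATF4-deficient neurons (limma adjusted p = 0.0231), a call lost without wildtype vehicle replicate 2 or replicate 1 of either ATF4-deficient group (adjusted p up to 0.128). Cort read 7.56 and 6.94 in ATF4-deficient neurons with arsenite, 7.91 and 7.33 in ATF4-deficient neurons with vehicle, 6.69, 6.39, 6.55 and 6.25 in wildtype neurons with arsenite, and 6.89 and 6.38 in wildtype neurons with vehicle. In wildtype neurons 4 of the 6 arrays lay below the dim reference of 6.64, so the size of the Cort difference is uncertain. Ndnf, a marker of layer 1 neurogliaform interneurons that Cajal-Retzius cells also express, was lower, at -0.78 (limma adjusted p = 0.00119). Ndnf read 7.05 and 7.16 in ATF4-deficient neurons with arsenite, 8.01 and 7.93 in ATF4-deficient neurons with vehicle, 7.98, 7.90, 7.69 and 7.91 in wildtype neurons with arsenite, and 8.73 and 8.80 in wildtype neurons with vehicle. The arsenite arrays lay below the vehicle arrays within each genotype, and the ATF4-deficient arrays below the wildtype arrays within each treatment. With arsenite it fell by 0.87 on the log2 scale in ATF4-deficient neurons (adjusted p = 0.00607) and by 0.89 in wildtype neurons (adjusted p = 0.00573). Its genotype difference was -0.79 under vehicle (adjusted p = 0.0218) and -0.77 under arsenite (adjusted p = 0.00793), and the interaction was 0.03 (95% interval -0.30 to 0.35). Both calls averaged over the other factor held without each array in turn. Within a genotype or treatment the Ndnf call was lost without wildtype vehicle replicate 1, ATF4-deficient vehicle replicate 1, any of the 4 vehicle arrays or either ATF4-deficient arsenite array, for arsenite in wildtype, arsenite in ATF4-deficient, genotype under vehicle and genotype under arsenite, in that order. Sst, the somatostatin gene and the brightest of this list, differed by -0.11 with genotype (adjusted p = 0.825), and Reln, the reelin gene, by -0.36 (adjusted p = 0.0526).

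For arsenite averaged over both genotypes, 3.07% of all genes passed. Arsenite calls in these lists were all falls. Averaged over both genotypes they comprised Satb1, a transcription factor of maturing interneurons that other cortical neurons express too, at -0.70 (adjusted p = 0.00887), Calb1, the calbindin gene, at -0.51 (adjusted p = 0.00936), and Ndnf at -0.88 (limma adjusted p = 0.000342). At the inhibitory postsynapse, 2 of 14 genes fell: Gabra5, a GABA-A receptor subunit, at -0.54 (adjusted p = 0.00193), and Nlgn2, an adhesion protein of inhibitory synapses, at -0.48 (adjusted p = 0.0355). Calb1, Ndnf and Gabra5 kept these averaged calls without each array in turn. Leaving out wildtype vehicle replicate 1 took Satb1 to an adjusted p of 0.0536, and the Nlgn2 call was lost without any of the 4 vehicle arrays or without replicate 2 of either arsenite group (adjusted p up to 0.143). In ATF4-deficient neurons taken alone, Satb1, Calb1, Crh, Ndnf and Gabra5 fell, Crh at -0.73 (limma adjusted p = 0.0449), and each of these calls was lost without ATF4-deficient vehicle replicate 1. Those of Satb1, Calb1, Crh and Gabra5 were also lost without any other ATF4-deficient array, and those of Satb1 and Crh without some wildtype arrays. In wildtype neurons taken alone Ndnf fell. None of these genes passed the limma interaction test. In the cell type lists, averaged over genotypes, arsenite calls were falls of Rorb, Pdgfra and Gfap, at -0.91, -0.59 and -0.37, and a rise of Slc17a6, at 0.31. The Rorb call held without each array in turn, and the other calls were lost without wildtype vehicle replicate 2, among other arrays.

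For genotype at the postsynapse, Gabra2, another GABA-A receptor subunit, rose by 0.74 averaged over treatments (limma adjusted p = 0.00654). Shisa7, an auxiliary protein of that receptor, fell by 0.52 on the log2 scale (limma adjusted p = 0.0339). In that comparison 1.82% of all genes passed. At an unadjusted p under 0.05, 6 of the 14 postsynapse genes passed, beside 16.3% of all genes. Gabra2 was 10.07 and 10.39 in ATF4-deficient neurons with arsenite, 10.43 and 10.46 in ATF4-deficient neurons with vehicle, 9.68, 9.88, 9.74 and 9.69 in wildtype neurons with arsenite, and 9.66 and 9.23 in wildtype neurons with vehicle. The ATF4-deficient arrays lay above all wildtype arrays, and the call held without each array in turn. The Shisa7 call was lost without any array but wildtype arsenite replicates 1 and 3 (adjusted p up to 0.171). Gabra5, the brightest gene of that list, differed by -0.09 with genotype (adjusted p = 0.556). Of 4 genes of GABA uptake and breakdown, 3 had an unadjusted p under 0.05 in limma. Slc6a11, a GABA transporter gene that astrocytes express, fell by 1.11 (adjusted p = 0.0491), and Abat, the GABA transaminase gene, differed by -0.29 (limma adjusted p = 0.210). The Slc6a11 call was lost without any array but wildtype arsenite replicates 2 and 3 (adjusted p up to 0.226). The astrocyte marker levels given above were lower in the same arrays, and their part in the Slc6a11 difference was not tested.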

How the data were processed

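Trizol-extracted total RNA was labelled with biotin by the Affymetrix WT PLUS kit and hybridized, per the labels' protocols. The authors deposited log2 values normalized by RMA in Partek 6.6, per the submitters' processing notes and the series design text. RMA makes array distributions equal, so a shift shared by most transcripts is removed. Scanner files were not used here. Of 41345 probe sets, 23521 carried 1 gene symbol in the platform annotation, 1814 several and 16010 none, and 23328 of the first kind matched GRCm38.p6 by Entrez identifier. For 1082 genes with several probe sets the brightest was used, which gave 22180 genes. The genome build of the array was not given in the sources used here.

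Groups came from the sample titles, and the labels name no batch. All 10 arrays entered a limma 3.58.1 model (R 4.3.3) with group means and 7 contrasts (6 residual degrees of freedom, prior SD 0.124 log2), which was tested on simulated data. Of simulated genotype changes of 0.5 log2, it recovered 26.9% under vehicle, 35.8% under arsenite and 68.7% averaged over treatments. A gene that did not pass is thus not shown to be unchanged. P-values were adjusted by Benjamini-Hochberg over all genes, threshold 0.05. A mean over treatments or genotypes weights both equally. The number of arrays limits precision.

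The interneuron genes and all lists were chosen with earlier results of these data known. Named besides the interneuron genes were list genes past the threshold in any contrast, for each inhibitory-neuron list the 2 brightest and the 2 with the largest difference in the averaged comparison, Atf4, and the 8 genes of highest correlation. Alternatives were dim genes removed, probe sets averaged, equal array medians, array weights, a variance trend, a robust prior, a replicate block, only the compared groups, and each array left out.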

Additional observations from a re-analysis of the deposited data

How the results depend on the processing

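Of 861 values of the 7 interneuron genes under 18 alternatives, 814 kept their direction and side of the threshold, 38 changed sign without being called, 6 lost a call, 3 gained one and 0 reversed a call. The lost calls are those of Dlx2 for genotype averaged over treatments, each on leaving out 1 array. The gained calls are 1 of Slc32a1 in that comparison with dim genes removed (2 interneuron genes called in place of 1), and 2 of Gad1. The Gad1 calls are for arsenite minus vehicle, in ATF4-deficient neurons and averaged over genotypes, both without ATF4-deficient arsenite replicate 1. Interneuron genes called with 1 array left out were 0 to 1 for arsenite in ATF4-deficient neurons, for arsenite averaged over genotypes and for genotype averaged over treatments. Their median ranged from -0.31 to -0.0048 for arsenite in ATF4-deficient neurons, -0.18 to -0.07 in wildtype neurons, -0.26 to -0.025 averaged, -0.36 to -0.19 for genotype under vehicle, -0.45 to -0.20 under arsenite, -0.40 to -0.24 averaged and -0.15 to 0.12 for the interaction.

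Counts over all genes moved more. With 1 array left out they were 50 to 200 for arsenite in ATF4-deficient neurons (256 with all arrays), 0 to 75 in wildtype neurons (107), 242 to 654 averaged (682), 0 to 99 for genotype under vehicle (96), 1 to 64 under arsenite (76) and 58 to 377 averaged (404). Removing dim genes gave 162 for arsenite in wildtype neurons and 190 for genotype under vehicle. Array weights gave 135 and 186 for arsenite in ATF4-deficient and wildtype neurons, and 228 and 40 for genotype under vehicle and arsenite. Only the compared groups gave 0 and 11 for arsenite in ATF4-deficient and wildtype neurons, and 0 and 41 for genotype under vehicle and arsenite. The replicate block gave 17 for arsenite in wildtype neurons, and 165 and 4 for genotype under vehicle and arsenite. The cause of these moves was not tested. Same-numbered arrays had deviations from their group means correlated at -0.06 to 0.40. The highest, 0.40, was that of ATF4-deficient arsenite with ATF4-deficient vehicle, then 0.39 for replicate 2 of the arsenite groups. The labels do not say whether such arrays share a culture, and this was not tested. The main model treats all arrays as independent, which shared cultures would break.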
